A study of Mus musculus with 3 samples.

Results

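Long-lived macrophage scavenger and lectin markers are 10 genes whose products take up or bind molecules outside the cell, or accompany such receptors in macrophages that persist in a tissue. They were chosen by symbol, with earlier results of these data known, as Cd163, Lyve1, Folr2, Colec12, Stab1, Mrc1, Cd209f, Cd209g, Cbr2 and F13a1. All 10 had a row among the 23997 genes of each library. RNA was sequenced from colonic macrophages of male C57BL/6 mice that had received no treatment, sorted as cells without Siglec-F, low for Ly6C and positive for CD64. The Tle4cKO library came from 4 pooled mice with floxed Tle4 alleles and Lyz2-Cre, the library labelled Tle3cKO from 3 pooled mice with floxed Tle3 alleles and Lyz2-Cre, and the WT library from 4 pooled mice that carried Lyz2-Cre alone. Lyz2-Cre makes Cre recombinase in cells of the myeloid lineage, so every group, WT included, expressed Cre. Ages are given as 9 weeks in the sort protocol and 8.9 weeks in the sample labels. Each genotype is 1 library, so no difference below has a replicate spread, a standard error or a p-value.

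Colonic macrophages are mostly replaced by blood monocytes, but a part of them persists in the gut wall without that supply, near vessels, nerves and muscle. Such cells are known for scavenger receptors, which bind modified proteins, haemoglobin complexes or debris and carry them into lysosomes, and for C-type lectins, which bind sugars in the presence of calcium. Several of these genes are also used by other cells: Stab1, Lyve1 and Mrc1 by lymphatic or sinusoidal endothelium, Colec12 by endothelium and fibroblasts, and F13a1 by monocytes. Tle3 and Tle4 encode Groucho-family corepressors, which bind DNA only through other factors and repress their targets.

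The sequences before the transcription start are shown for the members whose motifs or near-identity can be read directly. RefSeq promoters of build GRCm38.p6 were matched by symbol for 8 of the 10 members, at a RefSeq start that is also the 5′ end of the gene's locus in the deposited table. The gene positions given further on are those of the GENCODE annotation, which begins upstream of the whole window for Folr2 and Cd209g, so those windows lie inside the annotated gene. For Cd209f, Cbr2 and Mrc1 it begins within the window, so a part of each lies inside the annotated gene. Cd209f and Cd209g are neighbouring genes in the same cluster, and their promoters were nearly the same. Aligned over 160 bases that end 1 base before the Cd209f start and 15 bases before the Cd209g start, they were identical at 159 positions (99.4%), against 39.5% over the 76 bases further upstream. The alignment allowed no gaps, so an inserted or lost base would lower the upstream share. The capital marks the base that differs, at chr8:4105765-4105924 on the minus strand for Cd209f and chr8:4134562-4134721 on the plus strand for Cd209g.
Cd209f: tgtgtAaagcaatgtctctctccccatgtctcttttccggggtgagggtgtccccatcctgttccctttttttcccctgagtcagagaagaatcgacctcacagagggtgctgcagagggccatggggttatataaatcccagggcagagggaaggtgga
Cd209g: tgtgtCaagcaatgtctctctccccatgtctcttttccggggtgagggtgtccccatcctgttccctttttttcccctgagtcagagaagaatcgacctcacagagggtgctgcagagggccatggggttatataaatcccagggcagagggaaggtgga

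The 250 bases before each start were also searched on both strands for 4 short motifs of factors known in macrophages or as partners of Groucho corepressors. These were a MAF core (TGCTGA), a PU.1 core (GAGGAA), a RUNX core (TGTGGT) and a TCF/LEF core (CTTTGA). None of them is a part of another. The capitals below mark matches in Cd163 (chr6:124304401-124304650, plus strand), Stab1 (chr14:31168642-31168891, minus strand), Folr2 (chr7:101845332-101845581, minus strand) and Mrc1 (chr2:14229164-14229413, plus strand). Stab1, Folr2 and Mrc1 are shown for their matches, and Cd163 as a marker with none whose level differed widely.
Cd163: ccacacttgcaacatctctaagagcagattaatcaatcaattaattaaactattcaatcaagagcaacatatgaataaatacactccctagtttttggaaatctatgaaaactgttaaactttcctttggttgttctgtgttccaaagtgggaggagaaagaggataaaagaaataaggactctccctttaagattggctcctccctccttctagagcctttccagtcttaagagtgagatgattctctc
Stab1: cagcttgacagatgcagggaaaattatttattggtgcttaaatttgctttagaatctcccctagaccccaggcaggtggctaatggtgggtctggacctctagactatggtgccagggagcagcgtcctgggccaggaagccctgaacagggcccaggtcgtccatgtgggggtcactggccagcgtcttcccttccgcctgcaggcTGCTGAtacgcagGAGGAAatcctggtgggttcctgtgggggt
Folr2: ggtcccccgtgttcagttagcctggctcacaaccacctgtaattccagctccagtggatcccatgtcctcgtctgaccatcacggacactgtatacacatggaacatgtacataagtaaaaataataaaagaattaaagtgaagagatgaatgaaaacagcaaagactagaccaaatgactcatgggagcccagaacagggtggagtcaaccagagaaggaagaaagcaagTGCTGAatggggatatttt
Mrc1: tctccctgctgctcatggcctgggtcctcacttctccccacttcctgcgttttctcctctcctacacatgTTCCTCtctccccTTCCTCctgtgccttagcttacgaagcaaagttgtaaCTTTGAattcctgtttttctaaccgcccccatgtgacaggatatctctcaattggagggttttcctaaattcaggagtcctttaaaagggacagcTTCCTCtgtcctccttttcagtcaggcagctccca

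The MAF core stood in 2 of the 8 promoters, Folr2 and Stab1, and in 16.1% of all 32851 promoter windows of the same length. The PU.1 core stood in 4 of 8 (Cbr2, F13a1, Mrc1 and Stab1) and in 23.3% of all windows. Mrc1 alone of the 8 held the TCF/LEF core, which 13.8% of all windows hold. The RUNX core was in none of the 8, against 14.0% of all windows. These matches are letters in a window and were not tested as binding sites.

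**Figure D1:**
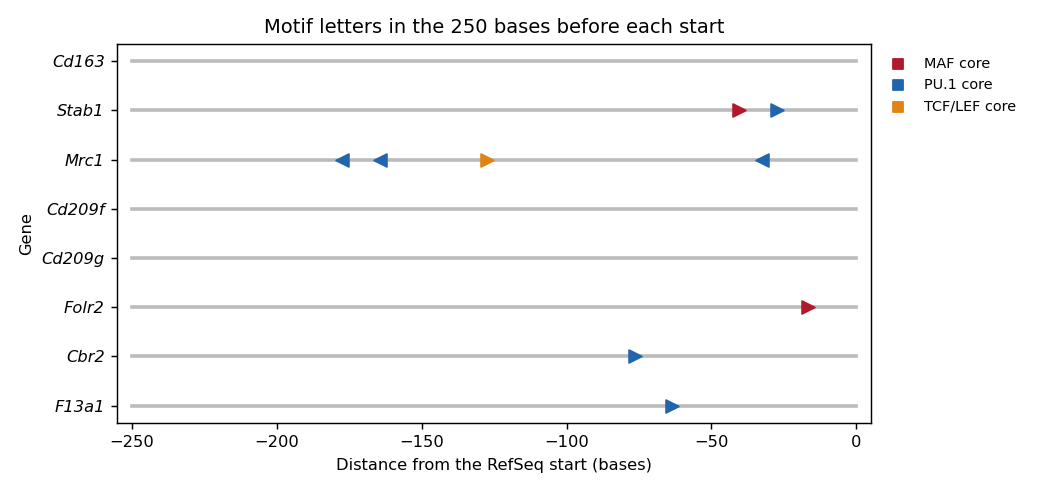
Motif letters in the 250 bases before the RefSeq start of 8 markers, by distance from the start in bases; triangles point right for a match on the gene's own strand and left for the other strand. Mrc1 holds 3 PU.1 cores and 1 TCF/LEF core, Stab1 a MAF core next to a PU.1 core, and Cd163, Cd209f and Cd209g none of the 4 motifs; the RUNX core is absent from all 8 windows.

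The unit is FPKM, which counts fragments relative to transcript length and to the size of the library, and the fragment totals are unknown. Steps between low values put the Tle4cKO library at 1.21 times and the library labelled Tle3cKO at 0.968 times the depth of WT. Genes of macrophage identity were present in every library, with none of 15 at 0, and Fcgr1, which encodes CD64, was at 39.2 FPKM in Tle4cKO, 36.0 in the library labelled Tle3cKO and 33.3 in WT. Tle4 was at 5.80 FPKM in Tle4cKO, 11.0 in the library labelled Tle3cKO and 8.50 in WT. Tle3 was at 46.9 FPKM in Tle4cKO, 70.7 in the library labelled Tle3cKO and 38.6 in WT, so the gene-level value goes against the label, although loss of some exons need not lower it. Every direction drawn from the library labelled Tle3cKO carries that doubt. If its label were exchanged with WT, the comparison of Tle4cKO with WT would be affected too.

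The markers covered a wide range of levels per transcript length. Mrc1 was the highest in all 3 libraries and Stab1 next, and both lay in the upper part of the 11114 genes that averaged at least 1 FPKM over the libraries and are called tested genes below, above 92.2% and 78.7% of them in Tle4cKO. The markers summed to 180.3 FPKM in Tle4cKO, 211 in the library labelled Tle3cKO and 157.5 in WT, of which Mrc1 alone made 54.7%, 46.8% and 57.3% in the same order. Without Mrc1 and Stab1 the sums were 47.5 FPKM in Tle4cKO, 74.3 in the library labelled Tle3cKO and 33.8 in WT. In bulk RNA, fewer cells of a type and less RNA per cell cannot be told apart. In WT the order below Stab1 was F13a1, Cbr2, Folr2, Cd163, Colec12, Lyve1, Cd209f and Cd209g. Which neighbours in that order differ cannot be said without replicates. Of the 10, Cd209g had a mean below 1 FPKM, and Cd209f passed that filter only through the Tle4cKO library and the library labelled Tle3cKO.

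**Figure D2:**
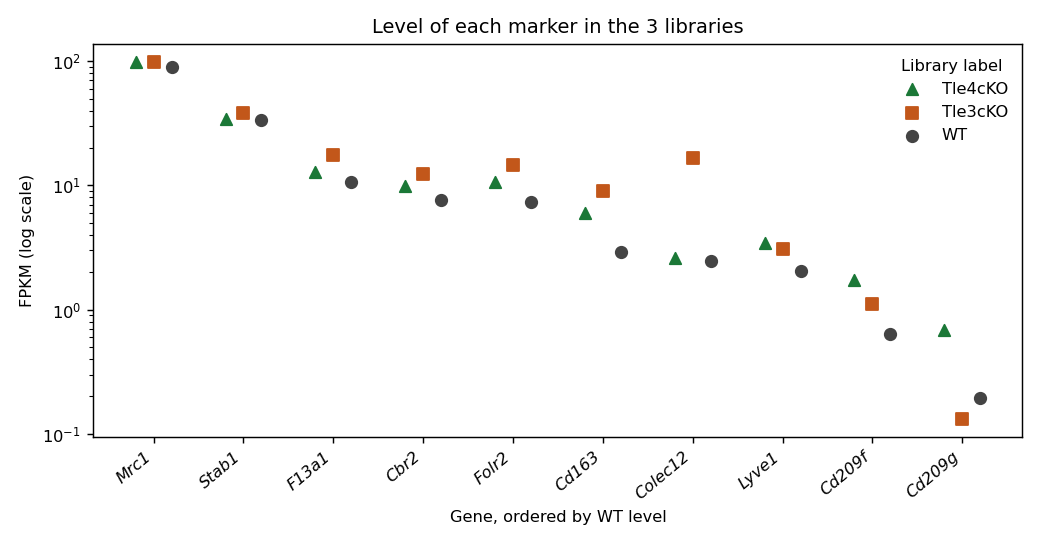
FPKM of each marker on a log scale in the Tle4cKO library (triangles), the library labelled Tle3cKO (squares) and WT (circles), 1 library each, with genes in the order of their WT level. The square of Colec12 stands clear of the other libraries at 16.6 FPKM, while the 3 symbols of Mrc1 and of Stab1 lie close together. For Cd163 the square is highest at 8.98 FPKM, the triangle lies between at 5.94 and the circle is lowest at 2.92.

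Among the scavenger receptors, Cd163 and Colec12 differed most and Stab1 hardly. Cd163, the receptor that clears haemoglobin bound to haptoglobin (ENSMUSG00000008845.9, mm10 chromosome 6, 124304656 to 124330527), was at 5.94 FPKM in Tle4cKO, 8.98 in the library labelled Tle3cKO and 2.92 in WT. Both libraries from floxed mice were above WT, with log2 ratios on the log2(FPKM + 1) scale of 0.82 for Tle4cKO and 1.35 for the library labelled Tle3cKO. That scale understates differences of low genes. Colec12, a membrane collectin that binds sugars and oxidised lipoprotein (ENSMUSG00000036103.9, chromosome 18, 9707595 to 9882644), was at 2.61 FPKM in Tle4cKO, 16.6 in the library labelled Tle3cKO and 2.44 in WT. Only the library labelled Tle3cKO was high: its log2 ratio to WT was 2.36, while that of Tle4cKO to WT was 0.07. Of its 50-base words, 5.05% also occur in transcripts of other genes. Stab1, or stabilin-1, which takes up acetylated lipoprotein and SPARC (ENSMUSG00000042286.13, chromosome 14, 31139013 to 31168641), was at 34.1 FPKM in Tle4cKO, 38.0 in the library labelled Tle3cKO and 33.5 in WT. Its log2 ratios to WT were 0.03 for Tle4cKO and 0.18 for the library labelled Tle3cKO, both within the middle 95% of all tested genes. The 3' end of Stab1 overlaps Nt5dc2 on the other strand, which was at 7.69, 7.73 and 10.5 FPKM in Tle4cKO, the library labelled Tle3cKO and WT. The 2 genes share 0.792% of the 50-base words of the Stab1 transcript, and no source says whether counting used strand.

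The C-type lectins split into an abundant gene that was nearly level and a rare pair that was highest in Tle4cKO. Mrc1, the mannose receptor CD206, which binds mannose-bearing glycoproteins (ENSMUSG00000026712.3, chromosome 2, 14229392 to 14332057), was at 98.7 FPKM in Tle4cKO, 98.7 in the library labelled Tle3cKO and 90.3 in WT. Its log2 ratio to WT was 0.13 in both. Cd209f, a mouse relative of DC-SIGN (ENSMUSG00000051906.15, chromosome 8, 4102787 to 4105835), was at 1.72 FPKM in Tle4cKO, 1.11 in the library labelled Tle3cKO and 0.635 in WT. Cd209g, its neighbour (ENSMUSG00000079168.4, chromosome 8, 4134098 to 4137707), was at 0.685 FPKM in Tle4cKO, 0.132 in the library labelled Tle3cKO and 0.193 in WT. So Cd209f was above WT in both, whereas Cd209g was above WT in Tle4cKO and slightly below it in the library labelled Tle3cKO. The log2 ratios of Tle4cKO to WT were 0.74 for Cd209f and 0.50 for Cd209g, and those of the library labelled Tle3cKO to WT were 0.37 and -0.07. The likeness of the pair goes beyond the promoters printed above. Their coding sequences agreed at 519 of 582 aligned bases (89.2%), and 35.6% of the 50-base words of the Cd209f transcript and 38.7% of those of Cd209g also occur in the other gene. How the reads of such stretches were divided is not known, so the split between these rows is uncertain.

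Lyve1 and Folr2 bind small or extended ligands at the surface. Lyve1, a receptor for the matrix sugar hyaluronan (ENSMUSG00000030787.4, chromosome 7, 110850607 to 110863239), was at 3.42 FPKM in Tle4cKO, 3.10 in the library labelled Tle3cKO and 2.03 in WT. It was the member with the closest values between the 2 libraries from floxed mice after Mrc1, both above WT, with log2 ratios to WT of 0.55 for Tle4cKO and 0.44 for the library labelled Tle3cKO. Folr2, the folate receptor beta (ENSMUSG00000032725.10, chromosome 7, 101839988 to 101857194), was at 10.6 FPKM in Tle4cKO, 14.5 in the library labelled Tle3cKO and 7.34 in WT. Its values followed the same order as those of Cd163, with log2 ratios to WT of 0.47 for Tle4cKO and 0.90 for the library labelled Tle3cKO. Of the 50-base words of its transcript, 64.5% also occur in the annotated antisense gene Gm10602, so reads of the pair could not be separated without strand.

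The remaining members are enzymes. Cbr2, a carbonyl reductase that reduces aldehydes and ketones (ENSMUSG00000025150.10, chromosome 11, 120729489 to 120732114), was at 9.82 FPKM in Tle4cKO, 12.2 in the library labelled Tle3cKO and 7.69 in WT. F13a1, the catalytic subunit of coagulation factor XIII, a transglutaminase that cross-links fibrin (ENSMUSG00000039109.16, chromosome 13, 36867178 to 37050244), was at 12.7 FPKM in Tle4cKO, 17.5 in the library labelled Tle3cKO and 10.6 in WT. Both enzymes were highest in the library labelled Tle3cKO and lowest in WT. The log2 ratios to WT were 0.32 for Cbr2 and 0.25 for F13a1 in Tle4cKO, and 0.61 for Cbr2 and 0.68 for F13a1 in the library labelled Tle3cKO. For Cbr2, 15.1% of the 50-base words are shared with the annotated pseudogene Gm11771, while Lyve1, Mrc1 and F13a1 share 0 words with any other gene.

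The labels name Tle3 as the gene deleted in the library labelled Tle3cKO, but Tle3 itself was higher there than in WT (log2 ratio 0.86). Whether the labels of these libraries were exchanged was not tested. An exchange with WT would turn round the directions of this comparison. It would also change the reference library of the comparison of Tle4cKO with WT. All members except Cd209g were higher than WT there, 9 of 10, where 47.6% of the 11114 tested genes were higher. Cd163 and Colec12, 2 of 10, were at least 2-fold higher, against 0.216% of tested genes, and no member was 2-fold lower (0.207% of tested genes). The members were chosen with earlier results of these data known, so the shares here and below are no independent background. At 1.5-fold, Folr2, F13a1 and Cbr2 joined them, making 5 of 10, against 1.59% of tested genes. The median log2 ratio was 0.52 over the 10 members and 0.61 over the 9 that passed the filter, beside -0.01 over all tested genes. Colec12 alone was at least 2-fold higher with a pseudocount of 5 (0.063% of tested genes) and at least 3-fold higher with the pseudocount of 1 (0.045%). The size of the difference was uneven, and the most abundant members, Mrc1 and Stab1, had the smallest ratios above 0.

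Tle4cKO was set against WT next, and both comparisons share the WT library. Tle4 itself was at 0.68 times its WT level in Tle4cKO, so its gene-level value was lower but not lost. With 1 library per genotype, the effect of the deletion was not tested. Here 10 of 10 members were higher than WT, where 49.4% of tested genes were higher. The limit on the choice of members holds for this share too. The median was smaller than for the library labelled Tle3cKO, but Lyve1, Cd209f and Cd209g were further above WT in Tle4cKO. On the log2(FPKM + 1) scale no member was 2-fold higher (0.162% of tested genes) or 2-fold lower (0.486%), and Cd163 and Cd209f, 2 of 10, were at least 1.5-fold higher, against 1.21% of tested genes. Cd209f, at 0.635 FPKM in WT, counts as a tested gene only through the libraries from floxed mice, where it was higher. The median log2 ratio was 0.39 over the 10 members and 0.32 over the 9, beside -0.003 over all tested genes. Values ran between 0.03 for Stab1 and 0.82 for Cd163. The pseudocount of 1 sets that count: as plain ratios of FPKM, Cd163 was 2.03, Cd209f 2.72 and Cd209g 3.55 times WT. With a pseudocount of 0.1, Cd209f (1.31) and Cd209g (1.42) were past 2-fold, 2 of 10 against 0.495% of tested genes, and Cd163 was at 0.999. Cd209g averaged below 1 FPKM and is not a tested gene, and the limit of Cd209f holds here too. That share is therefore no background for either.

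Set against the library labelled Tle3cKO, Tle4cKO had 6 of 10 members lower, where 47.6% of tested genes were lower. Colec12 was at least 2-fold lower, 1 of 10 against 0.522% of tested genes, with a log2 ratio of -2.29. No member was 2-fold higher on the log2(FPKM + 1) scale (0.207%), although the plain ratio of Cd209g was 5.18. With a pseudocount of 0.1 its log2 ratio was 1.76, and it was then the 1 member at least 2-fold higher, against 0.45% of tested genes. Cd209g is not itself a tested gene, so that share is no background for it. Cd163 (-0.52), F13a1 (-0.43), Folr2 (-0.43) and Cbr2 (-0.29) were lower by less, while Cd209g (0.57) and Cd209f (0.37) were higher. The median was -0.22 over the 10 members, beside 0.01 over all tested genes. Mrc1 was level at 0.0007, and it turned to between -0.07 and -0.02 when the libraries were rescaled.

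**Figure D3:**
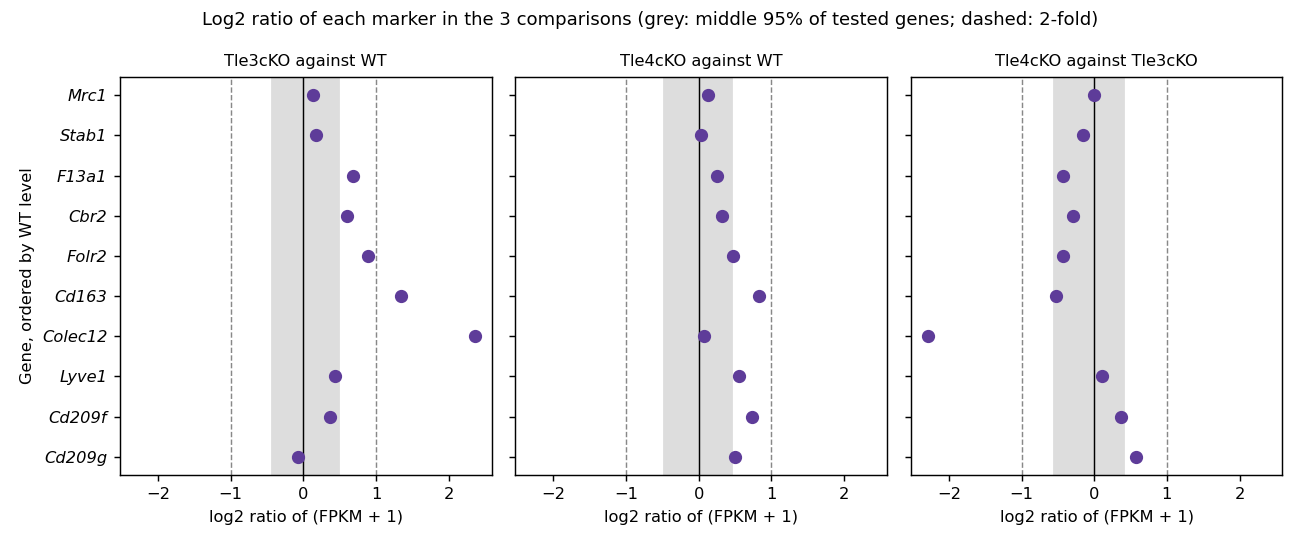
Log2 ratio of FPKM + 1 for each marker in 3 comparisons; the grey band spans the middle 95% of the 11114 tested genes and dashed lines mark 2-fold. Colec12 lies at 2.36 in the first panel, at 0.07 in the second and at -2.29 in the third, while every marker lies above 0 in the second panel.

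Lists of genes that share a role with the markers were mixed in direction. Of 25 other genes of long-lived macrophages over 1 FPKM, 15 were higher and 10 lower in Tle4cKO than in WT (median log2 ratio 0.05), and 19 were higher and 6 lower in the library labelled Tle3cKO (median 0.15). Fcna, which encodes the pattern-binding protein ficolin A, was at 3.74 FPKM in Tle4cKO, 7.98 in the library labelled Tle3cKO and 2.04 in WT. It was the 1 listed gene past 2-fold above WT in the library labelled Tle3cKO, and the chemokine gene Ccl8 the 1 past 2-fold below. Timd4, a receptor for phosphatidylserine on dying cells, and Gas6, which bridges that lipid to receptor kinases, were higher than WT in both, with log2 ratios of 0.52 and 0.31 in Tle4cKO. Of 10 other scavenger receptors over 1 FPKM, 8 were lower than WT in Tle4cKO (median -0.03) and 7 in the library labelled Tle3cKO (median -0.15). Among these Scarb1, a receptor for high-density lipoprotein, was at 21.7 FPKM in Tle4cKO, 14.2 in the library labelled Tle3cKO and 20.1 in WT. The widely used scavenger receptors Msr1, Cd36 and Cd68 had log2 ratios to WT between -0.23 and 0.07.

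The other genes of the CD209 and mannose receptor family were mixed too. Of 10 over 1 FPKM, 4 were higher in Tle4cKO than in WT (median -0.01) and 6 in the library labelled Tle3cKO (median 0.02), none past 2-fold. Cd209d, another member of the Cd209 cluster, was highest in Tle4cKO like Cd209f and Cd209g, at 5.58 FPKM in Tle4cKO, 3.94 in the library labelled Tle3cKO and 3.32 in WT. Cd209c was instead highest in the library labelled Tle3cKO, at 4.29 FPKM in Tle4cKO, 8.77 in the library labelled Tle3cKO and 5.33 in WT. Cd209a, the most abundant of the cluster, was at 68.2, 78.1 and 63.1 FPKM in the same order. So the genes of the cluster did not share 1 order of libraries.

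The partners of single members were examined in lists of their own. In haem and haemoglobin handling, which follows uptake through Cd163, 4 of 11 genes were higher in Tle4cKO than in WT (median -0.08) and 5 of 11 in the library labelled Tle3cKO (median -0.03). Hmox1, which breaks down haem, was at 1470 FPKM in Tle4cKO, 1415 in the library labelled Tle3cKO and 1601 in WT, so Cd163 stood higher where Hmox1 stood slightly lower. In hyaluronan handling, 4 of 8 genes were higher in each comparison with WT, with medians of -0.02 for Tle4cKO and -0.03 for the library labelled Tle3cKO. Hyal2, a hyaluronan-cutting enzyme, was at 6.02 FPKM in Tle4cKO, 5.36 in the library labelled Tle3cKO and 3.88 in WT, the same order as Lyve1.

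In folate uptake and use, 4 of 9 genes were higher in Tle4cKO than in WT (median -0.02) and 6 of 9 in the library labelled Tle3cKO (median 0.01), while the other folate receptor of the list, Folr1, was listed at 0 throughout. Of the carbonyl reductases and related enzymes, 7 of 7 were higher in Tle4cKO (median 0.15) and 1 of 7 in the library labelled Tle3cKO (median -0.28), where Cbr2 itself was higher. Of 3 transglutaminases over 1 FPKM, 1 was higher in Tle4cKO (median -0.03) and 2 in the library labelled Tle3cKO (median 0.04). Tgm2, the abundant tissue transglutaminase, followed the order of F13a1, at 193.6 FPKM in Tle4cKO, 209.3 in the library labelled Tle3cKO and 162.9 in WT.

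Known inducers and regulators of these markers were also mixed in direction. Of 22 such genes, 7 were higher in Tle4cKO than in WT (median -0.10), where 49.4% of tested genes were higher. In the library labelled Tle3cKO 8 of 22 were higher (median -0.04), where 47.6% of tested genes were. None was past 2-fold. The transcription factor gene Maf, known for macrophage maturation, had a log2 ratio to WT of -0.04 for Tle4cKO and of 0.05 for the library labelled Tle3cKO. Il10, a cytokine that raises CD163 in cultured macrophages, was at 61.1 FPKM in Tle4cKO, 89.9 in the library labelled Tle3cKO and 66.3 in WT. Both Il10 and Cd163 were highest in the library labelled Tle3cKO. For Tle4cKO the log2 ratio to WT was -0.12 for Il10 and 0.82 for Cd163. Whether Il10 had a part in the level of Cd163 was not tested. Id3, an inhibitor of DNA-binding helix-loop-helix factors, was at 35.2, 58.7 and 60.0 FPKM in the same order of libraries.

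Markers of other cells that use some of these genes moved with them in part. Of 10 endothelial genes over 1 FPKM, 9 were higher in Tle4cKO than in WT (median 0.17) and 9 in the library labelled Tle3cKO (median 0.53). Cldn5, a tight junction gene of endothelium, was at 1.53 FPKM in Tle4cKO, 3.78 in the library labelled Tle3cKO and 1.41 in WT. Cdh5, or VE-cadherin, was at 2.30, 2.99 and 1.31 FPKM. Both had the order of libraries that Colec12, Cd163 and Folr2 also had. Pecam1, the 1 of these 10 genes below WT in both, was at 22.4 FPKM in Tle4cKO, 18.8 in the library labelled Tle3cKO and 24.9 in WT. With 3 libraries few orders are possible. The share of all genes in each order was not counted, here or for Hyal2, Tgm2 and Dcn. The 16 endothelial genes with a row summed to 90.2 FPKM in Tle4cKO, 85.4 in the library labelled Tle3cKO and 70.7 in WT, mostly Pdpn and Pecam1, and none was at 0. The lymphatic regulator Prox1, which marks the endothelium where Lyve1 is used, was at 0.184, 0.229 and 0.207 FPKM. Of the other lymphatic genes listed, Flt4 was at 0.412, 0.580 and 0.263 FPKM and Pdpn at 51.7, 42.3 and 33.2. Mmrn1 was at 0.366, 0.442 and 0.439 FPKM and Reln at 0.133, 0.115 and 0.131. Flt4 and Pdpn were thus above WT in both, as Lyve1 was, whereas Prox1, Mmrn1 and Reln were not. All of these but Pdpn averaged below 1 FPKM. Pdpn lay far above the others, and which cells its RNA came from was not tested. The part of these cells in the levels of Lyve1, Stab1, Mrc1 and Colec12 was not tested.

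Fibroblast and smooth muscle genes were higher in 11 of 16 in Tle4cKO (median 0.15) and in 13 of 16 in the library labelled Tle3cKO (median 0.23), with sums of 357.3 FPKM in Tle4cKO, 382.1 in the library labelled Tle3cKO and 317.1 in WT and none at 0. Dcn, a fibroblast proteoglycan, was at 90.4, 105 and 81.8 FPKM, the order of Cd163 and Folr2. Col3a1 was instead highest in Tle4cKO, at 65.2, 59.8 and 54.1 FPKM, and Lum in WT, at 11.7, 10.7 and 12.2. The genes of this list thus did not share 1 order of libraries. The part of fibroblasts and smooth muscle in the marker levels was not tested either. Enteric glial genes, none at 0, went another way: 6 of 6 over 1 FPKM were lower in Tle4cKO than in WT (median -1.12), while 4 of 6 were higher in the library labelled Tle3cKO (median 0.08). The sums over 9 glial genes were 14.6 FPKM in Tle4cKO, 42.9 in the library labelled Tle3cKO and 42.3 in WT. Of 11 monocyte genes, 6 were higher than WT in each comparison (medians 0.0002 for Tle4cKO and 0.04 for the library labelled Tle3cKO). Ly6c2, which the sort selects against, was at 6.52 FPKM in Tle4cKO, 5.98 in the library labelled Tle3cKO and 9.38 in WT, and Ccr2, the receptor that draws in monocytes, at 28.3, 12.3 and 28.3. Ly6c1 was at 9.50 FPKM in Tle4cKO, 11.6 in the library labelled Tle3cKO and 7.57 in WT, and Chil3 at 0.083, 0.989 and 2.50, so these monocyte genes did not share 1 order of libraries. The part of monocytes in the level of F13a1 was not tested. Macrophage identity genes had medians of -0.04 for Tle4cKO and -0.11 for the library labelled Tle3cKO, with 5 and 4 of 15 higher.

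**Figure D4:**
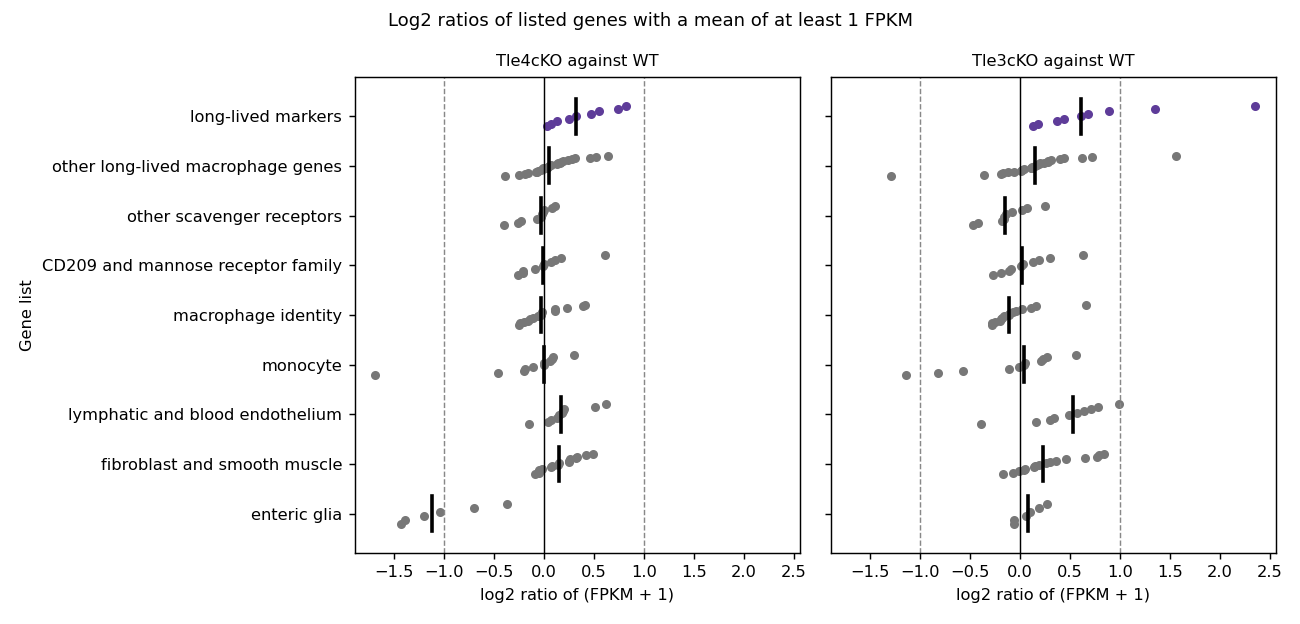
Log2 ratios to WT of listed genes averaging at least 1 FPKM, 1 dot per gene, for Tle4cKO (left) and the library labelled Tle3cKO (right); black bars are medians and dashed lines mark 2-fold. The dots of the 9 markers that passed the filter lie above 0 in both panels, as do 9 of 10 endothelial dots, while the other scavenger receptors scatter around or below 0 and the glial dots lie below 0 on the left.

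The genes nearest to the markers in their pair of ratios to WT were found by distance on the log2 scale over 7409 genes averaging at least 5 FPKM, which rests on 3 libraries only. Nearest to Colec12 was Rmrp (distance 0.19), a small non-coding RNA, at 19.4 FPKM in Tle4cKO, 84.3 in the library labelled Tle3cKO and 17.9 in WT. The next were Alox5, Cst7, Lars2 and Mmp9, all at distances over 1, so few named genes shared the pattern of Colec12. Nearest to the median pattern of the 9 members over the filter was Gas6 (distance 0.01), then Trim47, Anxa1, Ly6c1 and Etohi1. Of these Anxa1, a lipid-binding protein that limits inflammation, was at 119.7 FPKM in Tle4cKO, 153.2 in the library labelled Tle3cKO and 97.9 in WT.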

How the data were processed

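The authors deposited gene-level FPKM, per the file headers, as 3 tables of 23997 rows. The submitters' processing notes name TopHat2 (2.1.0), Cufflinks (2.2.1) and the build mm10, with no role for either tool. Cells of several mice were pooled by genotype before RNA extraction, per the labels' protocols, and groups come from sample titles. FPKM depends on the total of each library, and an exact 0 can be a failed estimate. The depth is unknown beyond the relative values, so no counting interval is given. Each ratio was taken on log2(FPKM + 1). Shares of all genes use the 11114 genes averaging at least 1 FPKM, whereas counts of members use all 10 rows. A single library per genotype allows no test.

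Members and gene lists were chosen with earlier results of these data known. Named were the members, Tle3, Tle4, up to 4 genes per list with the largest ratios to WT, any past 2-fold, and the 5 nearest genes by distance. Fcgr1, Cd209 relatives, Msr1, Cd36, Cd68, Hmox1, Folr1, Maf, Prox1, Flt4, Mmrn1, Reln, Pdpn, Pecam1, Dcn and overlapping genes were named after their values were seen. So were Col3a1 and Lum. Gene positions and transcripts are from GENCODE M21 (GRCm38, the same build as mm10). The steps were tested on simulated data. Python 3.11.15, numpy 2.4.6, pandas 2.3.3, matplotlib 3.10.9 and Biopython 1.88 were used.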

Additional observations from a re-analysis of the deposited data

How the results depend on the processing

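No paired analysis was possible because each genotype is 1 library, and for the same reason no library could be left out within a group. Over the 8 settings that could be run on single members (6 for Cd209g and 7 for Cd209f and Lyve1, which a filter removed from the others), every member kept its direction in the comparisons with WT. Only the rescalings of the libraries could have turned a direction round, because a pseudocount or a filter keeps the order of the values. With a pseudocount of 0.1, the members at least 2-fold higher were 2 in Tle4cKO against WT (0.495% of tested genes) and 1 (Cd209g) in Tle4cKO against the library labelled Tle3cKO (0.45%). Cd209g is counted in both but is not a tested gene, so those shares are no background for it. With a pseudocount of 5, 1 member was at least 2-fold higher in the library labelled Tle3cKO than in WT (0.063% of tested genes), and the medians were 0.32 for that comparison and 0.21 for Tle4cKO against WT. A filter at 5 FPKM, which leaves 7 members, gave medians of 0.25 for Tle4cKO against WT and -0.43 for Tle4cKO against the library labelled Tle3cKO. At 1.5-fold the members higher than WT were 2 in Tle4cKO and 5 in the library labelled Tle3cKO, and at 3-fold 1 in the library labelled Tle3cKO (0.045% of tested genes). The ratio of Mrc1 between Tle4cKO and the library labelled Tle3cKO turned to -0.0679 with equal totals, -0.0224 with the same median ratio and -0.0485 with equal totals without ribosomal protein, histone, small RNA and receptor segment genes. The restriction to members over 1 FPKM was chosen after seeing the data and ended no call. Depth limits Cd209g and Cd209f most.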

Other observations

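Lists of further cell types found in the colon were read over their genes averaging at least 1 FPKM. B and plasma cell genes were higher than WT in 10 of 10 in Tle4cKO (median log2 ratio 0.52) and in 10 of 10 in the library labelled Tle3cKO (median 0.34). Igj, the J chain of secreted antibodies, was at 192.3 FPKM in Tle4cKO, 57.9 in the library labelled Tle3cKO and 46.9 in WT. Colonic epithelial genes were higher in 6 of 6 in Tle4cKO (median 2.09) and in 6 of 6 in the library labelled Tle3cKO (median 0.44), though only 6 of 15 passed the filter, some through Tle4cKO alone. T, NK and innate lymphoid genes were higher in 3 of 6 in Tle4cKO (median 0.12) and in 5 of 6 in the library labelled Tle3cKO (median 0.34). Dendritic cell genes were higher in 8 of 11 in Tle4cKO (median 0.11) and in 4 of 11 in the library labelled Tle3cKO (median -0.12). Neutrophil and eosinophil genes were higher in 2 of 5 in Tle4cKO (median -0.13) and in 1 of 5 in the library labelled Tle3cKO (median -0.12).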
